A study of Mus musculus with 2 samples.

Results

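A set of 10 genes for zinc finger factors and nuclear receptors of early transcriptional responses was described in sorted microglia of sham-operated mice, namely Egr1, Egr2, Egr3, Nr4a1, Nr4a2, Nr4a3, Klf2, Klf4, Klf6 and Klf10. The 10 genes were chosen by symbol, without a filter on their values, from 53801 genes counted in 2 libraries. Earlier results of these data were known when they were chosen. Each library came from 1 mouse that had undergone sham surgery 3 days earlier, and both formed 1 group, so no condition was compared and the difference between the libraries was the spread behind every mean. The mice were hemizygous Cx3cr1(CreER/wt) animals on C57BL/6, male and 8 to 10 weeks old per the series text, whereas the study's methods give another age range and both sexes. Both had received tamoxifen at 75 mg/kg a day for 4 days, so the Cre recombinase driven by Cx3cr1 and the tamoxifen were shared by all samples. The treatment label reads none, and sham surgery is given by the sample titles. Cells of the left hemisphere were released in a heated dissociator and sorted as CD11c-Ly6G-CD11b+CD45low microglia, and the levels are those after dissociation and sorting. The arm with middle cerebral artery occlusion was not analysed here.

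The EGR factors are zinc finger activators whose genes are switched on within minutes of growth factor, calcium or ERK signalling, through serum response factor bound at CArG boxes. The NR4A proteins are orphan nuclear receptors whose activity follows their abundance, with CREB and MEF2 among the factors that induce their genes. The KLF factors bind GC-rich and CACCC sequences, and in myeloid and endothelial cells Klf2 and Klf4 are known as restrainers of inflammatory gene expression, while Klf6 favours it.

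Library 1 held 23381026 counts on genes and library 2 held 41142609, and levels were expressed as CPM, the counts divided by the total of the library and scaled to 1000000. A count of 0 allows a level of up to 3 counts, which was 0.128 and 0.0729 CPM, respectively. Intervals and such limits cover counting error only, since amplified reads without molecular identifiers are not independent molecules. Microglial identity was measured with 10 markers, each counted 10 times or more in either library, which summed to 39111 and 44410 CPM. The libraries stood apart in neutrophil transcripts. The 10 markers of immature neutrophils summed to 1752 and 32670 CPM in libraries 1 and 2, an 18.6-fold higher sum in the latter, and the 9 markers of mature neutrophils summed to 3604 and 30696 CPM, although the sort excluded Ly6G+ cells. The 8 monocyte markers summed to 721 and 3357 CPM, of which Chil3 made up 455 and 2901 CPM, while 5 of the 8 were lower in library 2 and their median log2 ratio was -0.42. The 6 markers of border-associated macrophages summed to 484 and 273 CPM, of which Mrc1 made up 190 and 42.7 CPM and Cd163 48.5 and 10.8 CPM. The other 4 were within 2-fold, and 1 of them, Ms4a7, was higher in library 2. Of the 8 endothelial markers, which summed to 23.2 and 17.6 CPM, Tek was at 0 in both libraries and Cldn5 had 1 count in each. The 6 pericyte and smooth muscle markers summed to 1.54 and 8.24 CPM with Myh11 at 0 in both, and the 6 neuron markers to 3.21 and 5.37 CPM. The 7 T and NK cell markers summed to 6.16 and 18.5 CPM with Cd3e and Cd8a at 0 in both, and the 6 erythroid markers to 0.214 and 15 CPM. Astrocyte markers summed to 232 and 191 CPM, oligodendrocyte markers to 235 and 242 CPM, and B cell markers to 570 and 778 CPM, with Ighm at 517 and 720 CPM.

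All 10 factors were detected, with 10 counts or more in each library, yet their levels spanned several orders of magnitude. Together they took 4303 and 3096 CPM in libraries 1 and 2, that is 0.430% and 0.310% of all counts. Per kilobase of exon, the scale on which genes can be compared, Egr1 carried 73.3% of the factors' summed level in library 1 and 74.7% in library 2. Egr1, the founding member of its family and a textbook immediate early gene, lies at chromosome 18 of GRCm38, 34859823 to 34864984, on the plus strand. It had 79866 and 97989 counts, which gave 3416 and 2382 CPM in libraries 1 and 2, a mean of 2899 ± 731 CPM (SD, n = 2). Per kilobase it stood above 99.5% of the 13445 genes called counted, those for which both libraries held 10 counts or more. In bulk RNA, fewer cells that express a gene and less RNA of it per cell cannot be told apart. The plot of the factors' CPM by library shows every value with its counting interval.

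**Figure D1:**
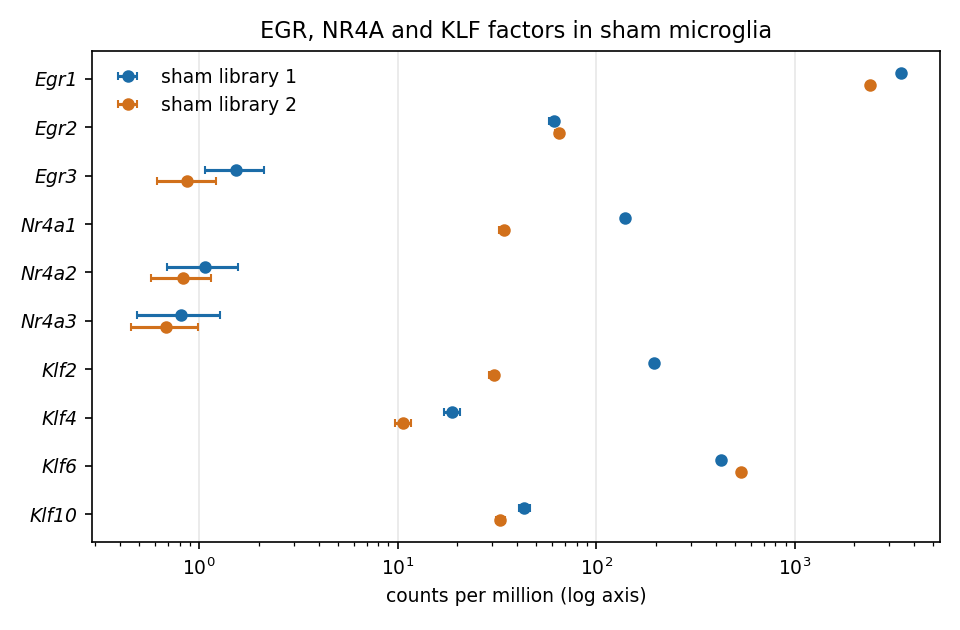
CPM on a log axis for the 10 factors in sham library 1 and sham library 2. Points are single libraries and bars are exact 95% Poisson intervals of the counts. Egr1 sat highest at 3416 and 2382 CPM, Klf2 and Nr4a1 were the factors farthest apart between the libraries, and Egr3, Nr4a2 and Nr4a3 lay near 1 CPM.

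The DNA before the start sites was read to show which known response sequences the factors' promoters hold. RefSeq promoter windows of GRCm38.p6, from 250 bases before to 50 after each start, were found for 7 of the 10 genes and not for Egr1, Egr3 and Klf10. Motifs were searched on both strands. The CArG box bound by serum response factor was found for Egr2, against 1.63% of 32851 windows, and the MEF2 site for Klf2, against 0.557%. The letters TGACG, the core of the cyclic AMP response element (CRE), were found for 6 of the 7 genes, all but Klf6, against 20.8% of windows. The full palindrome TGACGTCA, which contains that core on each strand, was in none of the 7 and in 1.79% of windows. The site of the EGR proteins themselves, GCGNGGGCG, was found for Klf2, Klf4, Nr4a1 and Nr4a2, against 5.55% of windows, and the GC box GGGCGG, whose letters can overlap it, for all 7, against 35.7%. The KLF-type letters CACCC were found for 4 of the 7, against 57.5%, and the TATA box TATAAA for Nr4a2, against 13.6%. The NR4A response element AAAGGTCA and the AP-1 site TGANTCA were in none of the 7 genes' windows, against 1.51% and 7.81% of windows. Egr2 had 5 windows and so more letters to match than the other genes. The shares cover all windows, whatever their base composition. Several of the motifs are rich in G and C, so these shares are not a matched background. A match is a description of these letters, not a bound site, and no binding data were analysed here.

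In the EGR family, Egr2 and Egr3 stood far below Egr1. Egr2, a regulator of myelination and of macrophage and lymphocyte tolerance (chromosome 10, 67535475 to 67542188, plus strand), reached 61.3 and 64.7 CPM in libraries 1 and 2, the closest pair among the 10. Egr3, known from muscle spindles and lymphocytes (chromosome 14, 70077203 to 70082614, plus strand), had 36 counts in each library, which gave 1.54 CPM with an interval of 1.08 to 2.13 in library 1 and 0.875 CPM with an interval of 0.613 to 1.21 in library 2. The Egr3 intervals overlapped, although the counting interval of its log2 ratio, library 2 over library 1, stayed negative at -1.52 to -0.108. Per kilobase, Egr1 made up 97.6% of the EGR family in library 1 and 96.5% in library 2. The stretch before a RefSeq start of Egr2 inside the gene's annotated span, chr10:67537619-67537868 on the plus strand and outside annotated exons, is shown because Egr2 alone of the 7 genes had a CArG box, here together with CRE cores, all in capitals. The first base of the CArG box was at -72 from the start.
Egr2: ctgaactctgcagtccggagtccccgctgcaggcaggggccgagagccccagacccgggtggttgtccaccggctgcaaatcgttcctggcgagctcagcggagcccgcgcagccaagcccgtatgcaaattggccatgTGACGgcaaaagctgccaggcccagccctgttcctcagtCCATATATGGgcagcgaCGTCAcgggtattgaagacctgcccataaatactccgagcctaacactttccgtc

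Nr4a1 stood far above its paralogues in both libraries. Nr4a1, also called Nur77, which is induced by antigen receptor and inflammatory signals (chromosome 15, 101254269 to 101274795, plus strand), gave 3256 counts or 139 CPM in library 1, and 1413 counts or 34.3 CPM in library 2. Its mean was 86.8 ± 74.2 CPM (SD, n = 2), so that the spread was close to the mean. Nr4a2, also called Nurr1, which is required for midbrain dopamine neurons (chromosome 2, 57106830 to 57124003, minus strand), had 25 and 34 counts, or 1.07 and 0.826 CPM. Nr4a3, also called NOR1 (chromosome 4, 48045153 to 48086447, plus strand), had 19 and 28 counts, or 0.813 and 0.681 CPM. The counting intervals of each of these low genes overlapped between the libraries, so a difference was not detectable at this depth. Per kilobase, Nr4a1 made up 99.0% of the family in library 1 and 96.9% in library 2. Upstream sequences of Nr4a1 and Nr4a3 are shown because both held several CRE cores, in capitals, while their levels differed widely. The Nr4a1 stretch, chr15:101266596-101266845 on the plus strand, precedes a RefSeq start inside the gene's annotated span and outside its annotated exons, and has 4 such cores. The Nr4a3 stretch, chr4:48045055-48045152 on the plus strand, ends at the first annotated exon and has 3.
Nr4a1: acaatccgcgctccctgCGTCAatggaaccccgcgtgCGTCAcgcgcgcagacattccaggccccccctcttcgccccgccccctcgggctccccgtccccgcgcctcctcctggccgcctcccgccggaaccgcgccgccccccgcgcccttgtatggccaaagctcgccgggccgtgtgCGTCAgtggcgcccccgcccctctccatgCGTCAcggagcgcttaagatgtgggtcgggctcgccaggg
Nr4a3: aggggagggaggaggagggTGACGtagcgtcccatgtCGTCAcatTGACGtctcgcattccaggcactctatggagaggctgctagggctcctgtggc

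Among the 4 KLF factors, Klf6 was high in both libraries and Klf2 in library 1 alone. Klf6, a factor induced by injury and inflammatory stimuli (chromosome 13, 5861482 to 5870394, plus strand), reached 425 and 539 CPM in libraries 1 and 2, a mean of 482 ± 80.2 CPM (SD, n = 2). Klf2 (chromosome 8, 72319033 to 72321656, plus strand) gave 4582 counts or 196 CPM in library 1, and 1252 counts or 30.4 CPM in library 2, and its SD of 117 CPM exceeded its mean of 113 CPM (n = 2). Library 1 was the higher for Klf2 and library 2 for Klf6, and neither pair of counting intervals overlapped. Klf10, a TGF-beta early response gene (chromosome 15, 38291463 to 38300706, minus strand), reached 43.5 and 33 CPM, respectively. Klf4, a factor of monocyte differentiation and pluripotency (chromosome 4, 55527143 to 55532466, minus strand), had 439 and 438 counts, which gave 18.8 and 10.6 CPM because library 2 was the deeper. The sequences before Klf2 and Klf6 are shown to set the factor with a MEF2 site beside the factor without a CRE core. The Klf2 stretch, chr8:72318812-72319032 on the plus strand, ends at the first annotated exon, has 71.5% G and C, and holds a MEF2 site whose first base is at -118 from the start and a CRE core, both in capitals. The Klf6 stretch, chr13:5861239-5861481 on the plus strand, ends likewise at the first exon, has 64.2% G and C, and held none of the CArG, MEF2 or CRE core letters.
Klf2: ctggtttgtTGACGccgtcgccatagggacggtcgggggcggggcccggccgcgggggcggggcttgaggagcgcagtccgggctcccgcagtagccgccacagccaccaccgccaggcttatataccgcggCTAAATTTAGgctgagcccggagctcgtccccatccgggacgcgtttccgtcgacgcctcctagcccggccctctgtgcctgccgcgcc
Klf6: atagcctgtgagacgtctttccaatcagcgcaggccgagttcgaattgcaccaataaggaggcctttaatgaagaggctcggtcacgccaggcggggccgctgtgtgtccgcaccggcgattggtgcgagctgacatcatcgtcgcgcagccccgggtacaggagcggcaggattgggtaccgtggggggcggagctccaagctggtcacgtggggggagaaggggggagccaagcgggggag

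On the per kilobase scale the order of the means was Egr1, Klf6, Klf2, Nr4a1, Egr2, Klf10, Klf4, Egr3, Nr4a2 and Nr4a3. The means fell from 646 CPM per kilobase for Egr1 to 110 for Klf6, 61.3 for Klf2, 24.7 for Nr4a1 and 18.5 for Egr2. They were 9.15 for Klf10 and 4.82 for Klf4, and 0.274, 0.234 and 0.125 for Egr3, Nr4a2 and Nr4a3. The highest level was thus 5184-fold the lowest. In 4 of the 9 neighbouring pairs of this order the ranges of the 2 libraries overlapped, namely Klf6 with Klf2, Klf2 with Nr4a1, Nr4a1 with Egr2, and Egr3 with Nr4a2, so these neighbours could not be ordered beyond their spread. These ranges leave out counting error. The counting intervals of Nr4a2 and Nr4a3 overlapped in each library, so that pair was not ordered beyond counting error either. The gap between Klf4 and Egr3 was 17.6-fold and parted 7 factors above 4 CPM per kilobase from 3 below 1. Among all counted genes, Klf6 was at the percentile of 96.8 on this scale, Klf2 at 94.1, Nr4a1 at 85.4, Egr2 at 81.4, Klf10 at 68.8 and Klf4 at 54.9. Egr3, Nr4a2 and Nr4a3 were at 6.89, 5.53 and 1.90.

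The libraries were then set against each other as the log2 ratio of CPM, library 2 over library 1. Of the 10 factors, 8 were lower in library 2 and 2 were higher, and the median of the 10 log2 ratios was -0.46. Over all 13445 counted genes the median was -0.26, so most counted genes were lower there too. Of the factors, 7 were below that median of all genes and 3 above it. Klf2 had a log2 ratio of -2.69, with a counting interval of -2.78 to -2.60, and was 6.44-fold lower in library 2. Nr4a1 had a log2 ratio of -2.02, with an interval of -2.11 to -1.93, and was 4.05-fold lower. These were the 2 of 10 factors over 2-fold apart, where 31.7% of all counted genes were. Both were lower in library 2, as 25.9% of all counted genes were by over 2-fold, whereas 5.74% were over 2-fold higher and none of the factors was. With edgeR's TMM library sizes, which moved the median log2 ratio of all genes from -0.26 to -0.01, the shares of all genes over 2-fold lower and higher became 19.4% and 8.87%. With these sizes 7 of the 10 factors were lower in library 2, and Klf2 and Nr4a1 were again the only factors past 2-fold. The count of factors apart was thus no larger than the background share. The position of Klf2 was nonetheless toward the edge of all genes, since 1.92% of counted genes had a lower ratio than Klf2, and 6.64% a lower ratio than Nr4a1.

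The remaining ratios were smaller. The log2 ratio was -0.82 for Klf4 and for Egr3, -0.52 for Egr1, -0.40 for Klf10, -0.37 for Nr4a2 and -0.26 for Nr4a3, and it was 0.08 for Egr2 and 0.34 for Klf6. The counting intervals of Egr2, Nr4a2 and Nr4a3 included 0. The biological coefficient of variation that edgeR estimated from the 2 mice over the counted genes was 0.482, and with 2 libraries of 1 group no test of a single gene was run.

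Base composition moved with the library ratio. Over 10 bins of GC content of the longest transcript, the median log2 ratio was -0.13 in the lowest bin and -0.64 in the highest, where 39.5% of genes were over 2-fold lower in library 2. Klf2 had 61.6% GC, above 98.6% of counted genes, and Nr4a1 had 57.0%, whereas Klf6, which was higher in library 2, had 42.4%. Egr1 had 57.3% and Klf4 54.6%. When each ratio was set against the median of genes alike in GC content and transcript length, the log2 ratio stayed at -2.51 for Klf2 and -1.90 for Nr4a1. For Egr1 the adjustment turned the sign, from -0.52 to 1.14, because the 98 genes of its bin had a median of -1.66, and with GC content alone the Egr1 ratio was 0.12. The direction of Egr1 between the libraries therefore depended on the scaling. After the adjustment 3 of the 10 factors were over 2-fold apart, against 22.4% of all genes, and the median of the 10 was -0.07, against 0 for all genes. The factors then split into 6 lower and 4 higher in library 2. Of all genes, 0.766% had a lower adjusted ratio than Klf2 and 2.39% a lower one than Nr4a1. Mitochondrially encoded genes took 0.766% of counts in library 1 and 0.391% in library 2, and the neutrophil and border macrophage marker sums given above also differed between the libraries. The part of depth, of base composition beyond this adjustment and of these other cells in the ratios was not tested.

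**Figure D2:**
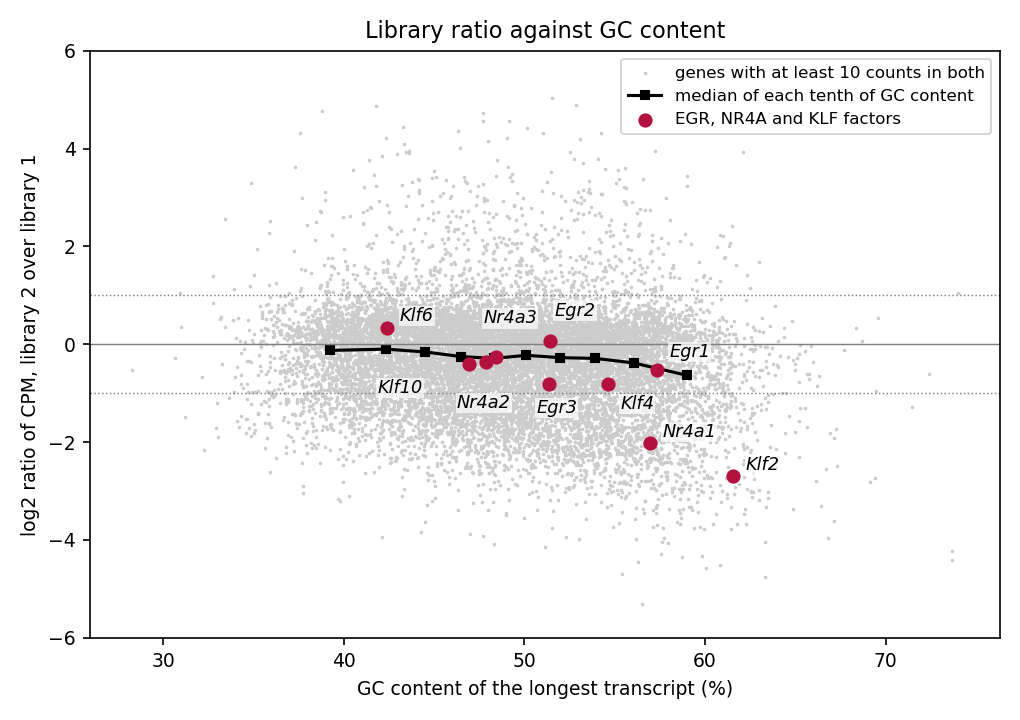
Log2 ratio of CPM between the libraries against the GC content of the longest transcript in percent. Grey points are the counted genes, black squares are the medians of 10 bins of GC content, red points are the 10 factors, and dotted lines mark 2-fold. The medians fell from -0.13 in the lowest bin to -0.64 in the highest, and Klf2 at -2.69 and Nr4a1 at -2.02 lay well under the medians of their bins.

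**Figure D3:**
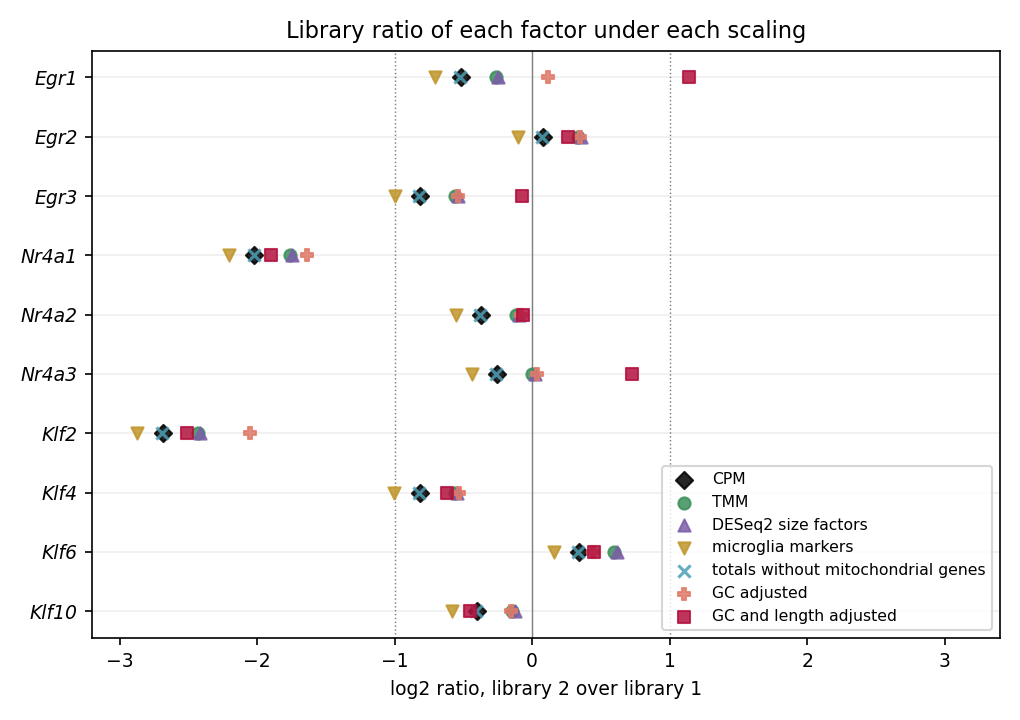
Log2 ratio of library 2 over library 1 for each factor under 7 ways of scaling, each a marker, with dotted lines at 2-fold. Klf2 stayed between -2.87 and -2.05 and Nr4a1 between -2.20 and -1.64, while Egr1 ran from -0.70 to 1.14.

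The rest of the 3 families placed the factors among their relatives. Egr4, the fourth EGR gene, had 0 counts in library 1 and 1 in library 2. Of the 17 KLF genes, 13 were counted, Klf14 and Klf17 were at 0 in both libraries, and Klf1 and Klf8 fell under 10 counts in at least 1 library, with 4 and 12 counts and 2 and 4 counts. Per kilobase, Klf2 made up 38.4% and Klf6 35.0% of the KLF family in library 1, whereas in library 2 Klf6 made up 65.7% and Klf2 8.83%. Klf3, a repressor that recruits CtBP, had 334 and 225 CPM and made up 10.8% and 10.7% per kilobase, the most of the family members outside the 10. Klf7 had 49.6 and 54.6 CPM. Klf13 had 99.2 and 23.3 CPM and Klf16 had 7.78 and 0.608 CPM, log2 ratios of -2.09 and -3.68. Klf5 moved the other way, from 1.88 to 7.75 CPM, a log2 ratio of 2.04. Klf11, Klf12, Klf15 and Klf9 had means from 1.23 to 16 CPM. With Klf2, 4 of the 13 counted KLF genes were over 2-fold apart, 3 lower and 1 higher in library 2, close to the 31.7% of all counted genes. After the GC and length adjustment the log2 ratio was -0.36 for Klf13, -3.07 for Klf16, 2.35 for Klf5 and 1.39 for Klf12. The adjusted ratios again placed 4 KLF genes over 2-fold apart, beside 22.4% of all genes.

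**Figure D4:**
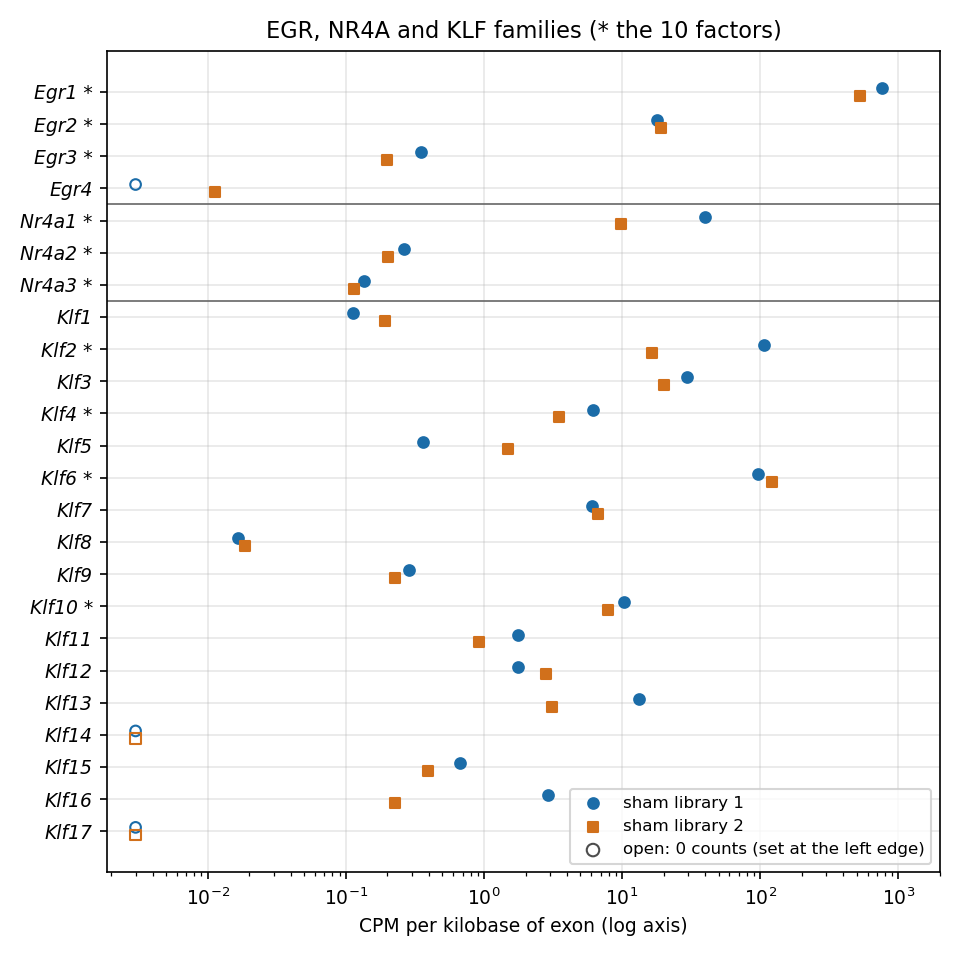
CPM per kilobase of exon on a log axis for the EGR, NR4A and KLF families, circles for sham library 1 and squares for sham library 2, with open symbols at the left edge for 0 counts and asterisks for the 10 factors. Egr1 and Nr4a1 led their families in both libraries, Klf2 led the KLF genes in library 1 and Klf6 in library 2, and Egr4, Klf14 and Klf17 had at most 1 count.

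The related SP factors, which share the GC box with the KLF proteins, were represented by 4 of 9 genes, and 3 of these 4 were over 2-fold lower in library 2, beside 25.9% of all counted genes. Sp3 was the highest at 79.6 and 55.7 CPM, and Sp5 and Sp6 were at 0 in both libraries. The partners of the factors were present at modest levels. Nab1 and Nab2, corepressors that bind EGR proteins, had 8.00 and 7.32 CPM and 15.1 and 4.52 CPM. Of the retinoid X receptors that pair with Nr4a1 and Nr4a2, by mean CPM Rxrb was the highest at 117 and 56.1 CPM and Rxrg the lowest at 0.855 and 2.04 CPM, and all 3 were over 2-fold apart, 2 lower and 1 higher in library 2, beside 31.7% of all counted genes. After the GC and length adjustment 1 of the 4 SP genes and 1 of the 3 receptors were over 2-fold apart, beside 22.4% of all genes.

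The inducers of the factors' genes were also counted in both libraries, and the highest and lowest gene of each list are given by mean CPM. The counts below stand beside 25.9% of all counted genes over 2-fold lower and 5.74% over 2-fold higher. In the list of Srf and its cofactors all 6 genes were lower in library 2, 3 of them over 2-fold, with Elk3 the highest at 75.2 and 58.1 CPM and Elk1 the lowest at 4.19 and 2.94 CPM. Srf itself, named after its values were seen, had 16.9 and 3.62 CPM. Of CREB and its coactivators, 1 of 6 was over 2-fold lower and 1 over 2-fold higher, from Creb1 at 54.7 and 33 CPM to Crem at 5.09 and 12.2 CPM. Of the ERK5 and MEF2 genes, which act upstream of Klf2 in endothelium, 3 of 5 were over 2-fold lower, with Mef2c the highest at 648 and 576 CPM and Mapk7, which encodes ERK5, the lowest at 44.4 and 21.5 CPM. Of calcineurin and NFAT genes, 3 of 6 were over 2-fold lower, from Nfatc1 at 252 and 78.7 CPM to Ppp3cb at 16 and 8.46 CPM. After GC and length adjustment these 4 lists held 1 gene, 1 gene, 0 genes and 1 gene over 2-fold apart, beside 22.4% of all genes.

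Textbook targets of the factors were read in the same libraries. Cdkn1a, a cell cycle inhibitor activated by several KLF and EGR proteins, had 311 and 173 CPM. Thbd, the thrombomodulin gene that Klf2 and Klf4 activate in endothelium, had 5.09 and 2.45 CPM. S1pr1, which Klf2 activates in T cells and which was named after its values were seen, had 83.9 and 90.5 CPM. By CPM Klf2 was lower in library 2, as were Thbd and Cdkn1a, while S1pr1 differed little. Nab2, a target of EGR proteins given above, was lower there too. Thbd and Nab2 were over 2-fold lower, as 25.9% of all counted genes were. After the GC and length adjustment the log2 ratios were -0.31 for Thbd, -0.997 for Cdkn1a, 0.14 for S1pr1 and -1.16 for Nab2. Of these genes Nab2 alone was then over 2-fold apart, beside 22.4% of all genes. A target gene of the list is not reported here, so the targets shown are not the whole list. Whether targets follow their factors was not tested.

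Other groups of early response genes were set beside the factors. The AP-1 genes summed to 9162 and 11921 CPM in libraries 1 and 2, and 12 other early response genes to 8663 and 11676 CPM, so that both sums were higher in library 2 by CPM. The sum of the 10 factors was lower by CPM, but it was mostly Egr1, whose log2 ratio went from -0.52 to 1.14 with the GC and length adjustment. By mean CPM, Fos was the highest AP-1 gene at 2786 and 5980 CPM, although Jun was higher in library 1, and Fosl1 was the lowest at 0.342 and 3.69 CPM. Among all counted genes 25.9% were over 2-fold lower in library 2 and 5.74% over 2-fold higher, the shares to set beside the counts that follow. Of the 7 counted AP-1 genes 2 were over 2-fold lower and 1 higher in library 2, and the median log2 ratio was -0.10. Of the 12 other genes 3 were over 2-fold lower and 1 higher, with a median of -0.19, and by mean CPM they ran from Dusp1, a MAP kinase phosphatase, at 1780 and 3668 CPM to Dusp5 at 14.5 and 2.09 CPM. Of 9 factors of microglial identity 3 were over 2-fold lower, with a median of -0.76, and by mean CPM they ran from Irf8 at 1000 and 590 CPM to Cebpa at 67.4 and 7.80 CPM. Each of these 3 lists, like the 10 factors, thus held genes on both sides of 0. By CPM the factors' median of -0.46 lay between those of the early response and the identity lists. After the GC and length adjustment the factors' median of -0.07 was below all 3. The medians were then 0.60 for AP-1, 0.08 for the 12 other genes and -0.001 for the identity factors. Over 2-fold apart after the adjustment were 2 AP-1 genes, 4 of the 12 others and 1 identity factor, beside 22.4% of all genes.

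**Figure D5:**
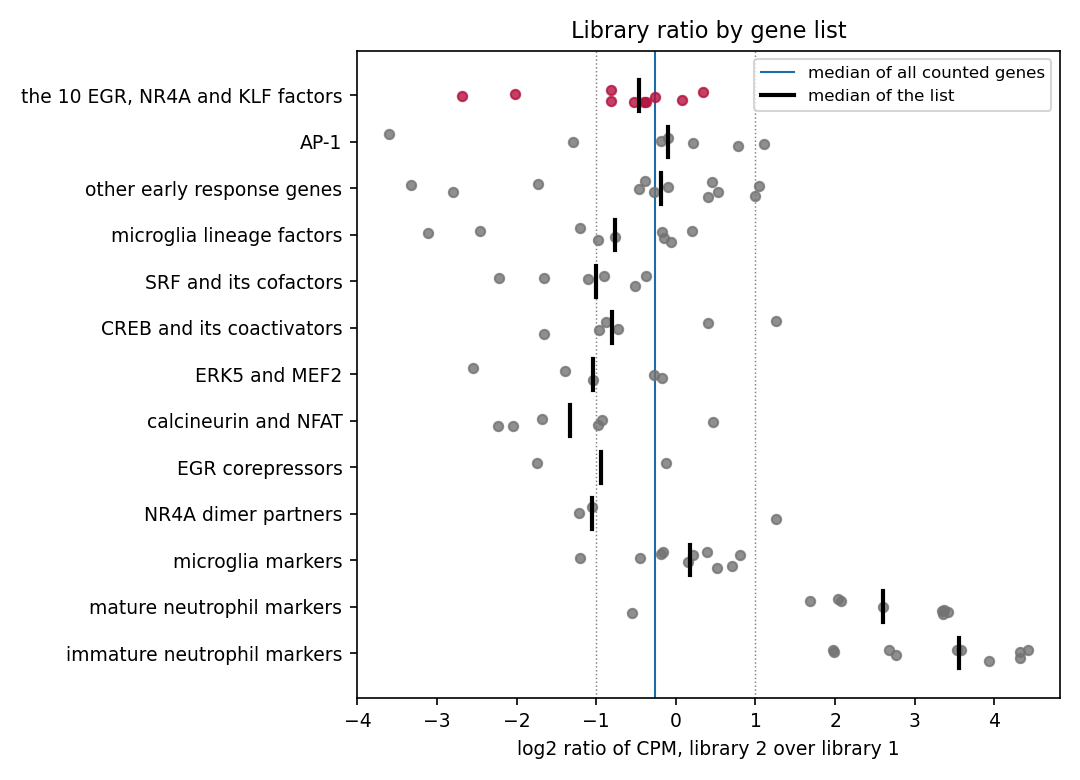
Log2 ratio of CPM, library 2 over library 1, for the counted genes of each list, with the list's median as a black bar, the median of all counted genes as a blue line and dotted lines at 2-fold. The 10 factors had a median of -0.46 near the -0.26 of all genes, and the mature and immature neutrophil markers had medians of 2.60 and 3.55.

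The factors' transcripts were also described by features that their choice by symbol did not use. All 10 had at least 1 ATTTA pentamer in the 3′ UTR, against 70.3% of the 11473 counted genes with an annotated 3′ UTR. The pentamer is the core of AU-rich elements through which early response transcripts are degraded. It was counted in the longest of the transcripts with an annotated 3′ UTR. Egr3 and Klf6 had 7 each and Klf2 and Klf4 had 1 each. The median density was 2.26 per kilobase of 3′ UTR for the factors and 1.29 for all these genes. By their medians the factors' genes were compact, with a span of 7814 bases against 19369 for all counted genes and 4 exons against 6. Nr4a1 and Nr4a3 were longer than that median of all genes, with spans of 20527 and 41295 bases. Egr1, Egr2 and Egr3 had 2 exons each and the NR4A genes 8 each. The median GC content was 51.4% for the factors and 49.2% for all counted genes, and the factors ran from 42.4% for Klf6 to 61.6% for Klf2. No exon of the 10 genes overlapped an exon of another annotated gene, on either strand.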

How the data were processed

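The deposited values are raw counts per Ensembl gene, which the authors made with HTSeq from reads aligned to GRCm38 by HISAT2, without normalization. cDNA came from the SMART-Seq HT kit and libraries from tagmentation. Versions, annotation release and strand setting are not given in the sources used here. Of 53801 identifiers, 53620 were named from GENCODE M21, which also gave exons, GC content and lengths, and all 10 genes had the same start and end there. Library totals were 23381026 and 41142609 counts. The 10 genes, the 28 gene lists and the naming rule (all 10 genes, their families, and the highest and lowest gene by CPM of each other list) were chosen with earlier results of these data known. CPM was counts divided by the library total, scaled to 1000000, and 13445 genes that reached 10 counts in each library were termed counted. CPM intervals were exact Poisson and ratio intervals exact binomial, at 95%. Ratios were adjusted by subtracting the median of their bin, out of 10 of GC content by 10 of length, or of GC content alone under 20 genes. The adjustment was tested on simulated data. Alternatives were TMM (edgeR 4.0.16), DESeq2 1.42.0 size factors, other totals, filters and folds. Promoters were RefSeq windows of GRCm38.p6, shown up to the first annotated exon. R 4.3.3, Python 3.11.15, numpy 2.4.6, pandas 2.3.3, scipy 1.17.1 and matplotlib 3.10.9 were used. A target gene of the lists is not reported here. No test between groups was run, since the labels give 1 group.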

Additional observations from a re-analysis of the deposited data

How the results depend on the processing

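No paired analysis was possible because a single group was sampled. The mean summed level of the 10 factors was 3700 CPM and ran from 3659 to 3818 CPM under the other scalings, and from 3096 to 4303 CPM with 1 library left out. The median log2 ratio of the factors, -0.46 by CPM, was -0.20 with TMM, -0.19 with DESeq2 size factors, -0.64 when scaled to the microglia markers, -0.0716 after the GC and length adjustment and -0.12 after adjustment for GC content alone, the last chosen after seeing the data. The median of all counted genes was -0.26 by CPM, -0.01 with TMM, 0.01 with DESeq2 and -0.45 with the microglia markers. The number of factors over 2-fold apart was 2, and 3 with the microglia markers, where Klf4 reached -1.0, and 3 after GC and length adjustment, where Egr1 joined with the opposite sign. With a limit of 1.5-fold it was 4, and with 4-fold 2. All 10 factors had at least 10 counts in each library alone, and 7 had at least 100 in both. Over 6 alternatives, Klf2 and Nr4a1 kept their sign and stayed over 2-fold apart, Egr1 changed sign in 2, Egr2 in 1 and Nr4a3 in 4. The share of all genes over 2-fold apart ran from 38.0% with a minimum of 1 count to 19.3% with a minimum of 1000. All 20 places in the order of level were unchanged with the longest transcript's length or no length scaling, and all 40 CPM means under other scalings moved by less than 1 SD. With 2 libraries, each mean is imprecise whatever the depth, and the low counts of Egr3, Nr4a2 and Nr4a3 add counting error.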
